A study of Mus musculus with 30 samples.

Results

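Gene expression was compared between the brains of mice aged 25 months that had received rapamycin and those of young control mice aged 25 weeks. The compared arrays were those labelled brain whose source gave either 25 months with rapamycin or 25 weeks as young control, which selected 8 of the 30 arrays of the series. The rapamycin group held 4 male wildtype C57BL/6JRj mice, an inbred black strain, treated from 13 months of age for more than 12 months. A second set of 2 male mice of the same strain and genotype was 25 months old and labelled control, from a protocol that assigned mice to rapamycin or vehicle at random. Their values are given beside the comparison. Their 2 arrays also entered its normalization, its detection filter and its shared estimate of the spread, so standard errors and adjusted p-values depend on them. The young group held 4 male mice of the same strain and genotype at 25 weeks, with no treatment named for them. Each array measured total RNA of 1 mouse on Illumina BeadChips, glass arrays of gene-specific probes on beads, so every value is a log2 intensity after background correction and normalization. The rapamycin and young mice differed in age and in treatment at once, and in this comparison the 2 cannot be told apart.

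Rapamycin binds the small protein FKBP12, and the pair inhibits mTOR complex 1, a kinase complex that couples nutrients and growth factors to protein synthesis, autophagy and cell growth. In the brain, microglia are the resident macrophages, which clear debris through Fc receptors, complement receptors and lysosomes. Astrocytes support synapses and vessels and express the filament protein GFAP more strongly when they become reactive. Complement proteins tag material for removal, and interferon-stimulated genes form an antiviral programme that many brain cell types can switch on.

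The arrays detected 12975 to 13562 probes each, and median intensity before normalization ran from 120.1 to 135.7. All 5 astrocyte and all 4 oligodendrocyte markers measured were detected on every array, as were 3 of 5 neuron and 3 of 4 microglia markers, while 2 neuron markers were detected on none. Sample titles marked the 25-month controls as young, against their stated age, and the stated ages were used. On the first 2 principal components rapamycin 1 stood apart from the other rapamycin arrays (3.60 on the first component, against -10.47 to -13.18), and young 4 stood apart from the other young arrays on the second (-14.96, against 4.98 to 7.46). Levels of pituitary hormone transcripts differed widely between arrays. Of the 10 brain arrays, Gh was detected on 7, Prl on 6, Cga on 4 and Pomc on 1. The mean log2 level of the 4 pituitary hormone genes ranged from 5.85 to 10.83 on rapamycin arrays and from 4.39 to 7.42 on young arrays, and was 4.29 and 4.32 on the 25-month control arrays. Gh, the growth hormone gene, read 11.33, 13.46, 8.14 and 9.64 on rapamycin arrays, against 5.06, 8.16, 4.50 and 10.44 on young arrays, so the groups overlapped. Olfactory bulb markers averaged 6.43 to 6.81 on rapamycin arrays, above the 5.28 to 6.30 of young arrays. The part of these pituitary and bulb marker levels in the results below was not tested.

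**Figure D1:**
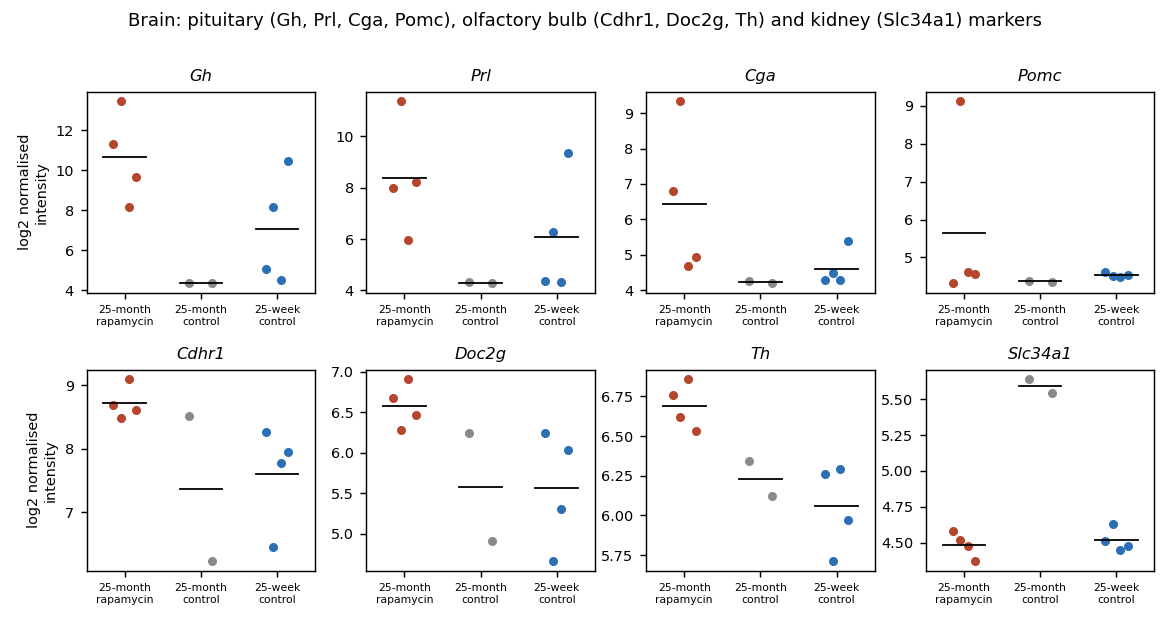
Log2 normalised intensity of pituitary, olfactory bulb and kidney marker genes on each brain array (points) with the group mean (bars), for 4 rapamycin, 2 control mice of 25 months and 4 control mice of 25 weeks. Gh reached 13.46 on 1 rapamycin array and 10.44 on 1 young array, and Slc34a1 was detected only on the 2 arrays of the 25-month controls.

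The first question was which transcripts differed between the treated old mice and the young mice. Of 14473 probes tested, 158 passed the threshold, a Benjamini-Hochberg adjusted p under 0.05 in limma (1.09% of probes), and 131 of them were higher in the rapamycin mice. With 1 probe kept per gene, 130 of 10040 genes passed (1.29%). Of these, 109 genes were higher (1.09%) and 21 were lower (0.209%) in rapamycin mice. The rises were also the larger changes: 17 genes had a fitted rise of more than 1 on the log2 scale, 16 with undetected genes set to their bound, and 0 fell by as much. All 130 had 4 rapamycin arrays that did not overlap the 4 young arrays, as did 842 genes in all (8.39%). The median log2 difference over all genes was -0.0015, and 49.5% of genes had a positive one. The shares of 1.09% higher, 0.209% lower and 49.5% positive are those to set beside each list count below. Only 31 of the 130 genes had several probes tested, and in 5 of those every probe passed.

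The number of calls depended on single mice. It was 440 probes without rapamycin 1 (251 higher and 189 lower) and 62 without rapamycin 3 (59 higher and 3 lower). It was 93, 68 and 87 without young 1, 2 and 3, and 96 and 86 without rapamycin 2 and 4. With rapamycin 1 and young 4 both left out, a choice made after the principal components were seen, 382 probes passed (226 higher and 156 lower). All 158 calls kept their direction in each of these fits. In bulk tissue, fewer cells of a type and less RNA per cell cannot be told apart, and this holds for every cell type named here.

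**Figure D2:**
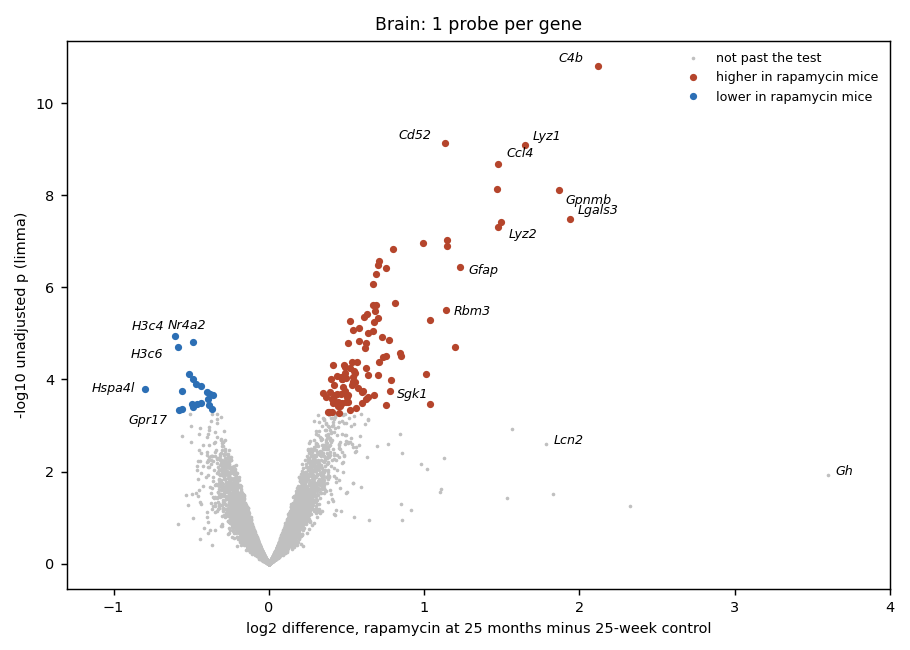
Log2 difference between rapamycin mice at 25 months and control mice at 25 weeks (x axis) against the unadjusted limma p on a -log10 scale (y axis), 1 point per gene. The 109 genes higher past the test reach a log2 difference of 2.12 (C4b), the 21 lower genes reach -0.80 (Hspa4l), and Gh lies far to the right without passing.

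Complement genes held the strongest single rise. C4b, which encodes complement component 4, read 9.23, 9.42, 9.60 and 9.45 in the rapamycin brains, against 7.41, 7.36, 7.34 and 7.11 in the young brains. Every rapamycin value lay above every young value, and the log2 difference was 2.12 ± 0.10 (SE; n = 4 and 4; limma adjusted p = 2.23e-07), or 4.34-fold. A C4b probe may also read its close relative C4a. The 3 genes of C1q, the protein that starts the classical complement cascade, moved by a smaller amount. C1qa read 7.52, 7.49, 7.67 and 7.58 in rapamycin mice and 6.89, 6.67, 7.14 and 6.63 in young mice, a log2 difference of 0.73 ± 0.11 (limma adjusted p = 0.00424). C1qb (0.67 ± 0.08) and C1qc (0.75 ± 0.08) rose by similar log2 differences, and their 4 rapamycin arrays also lay above all young arrays. Of 8 complement genes tested, 5 rose and 0 fell (1.09% and 0.209% of all genes did), with a median log2 difference of 0.58. Between 4 and 5 of them rose whichever mouse was left out. The mean log2 level of the list was 7.95 to 8.06 on rapamycin arrays, against 7.30 to 7.45 on young arrays.

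Genes of phagocytes and of lipid-loaded microglia followed. Lgals3, the gene of galectin-3, a sugar-binding protein of activated phagocytes, read 7.01, 7.51, 7.86 and 7.46 in rapamycin mice, against 5.49, 5.47, 5.89 and 5.22 in young mice. Its log2 difference was 1.94 ± 0.17 (SE; limma adjusted p = 6.79e-05), and rapamycin 1 held the lowest of the treated values. Gpnmb, a lysosomal glycoprotein of lipid-laden macrophages, read 7.45, 7.96, 8.20 and 7.64, against 6.02, 6.09, 5.92 and 5.74 in young mice, a log2 difference of 1.87 ± 0.14 (limma adjusted p = 1.81e-05). A second, dimmer Gpnmb probe differed by 0.36 and did not pass (limma adjusted p = 0.103). Lyz1, a lysozyme gene, read 10.11, 10.17, 10.23 and 9.96 in the rapamycin brains, against 8.34, 8.53, 8.72 and 8.26 in young ones (log2 difference 1.65 ± 0.10). Its near-identical neighbour Lyz2, the lysozyme of macrophages, differed by 1.5 ± 0.13, and both Lyz2 probes passed. The array may not separate these paralogues. Cd52, a short surface glycoprotein of leukocytes, had the tightest groups, with 7.45, 7.43, 7.29 and 7.41 in rapamycin mice against 6.32, 6.19, 6.27 and 6.25 in young mice (1.14 ± 0.07). Of the 20 genes tested in this list, 8 rose (1.09% of all genes did), 0 fell, and the median log2 difference was 0.41.

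Other receptors and surface proteins of myeloid cells also rose. Slamf9, a receptor of the SLAM family, differed by log2 1.15 ± 0.11 (SE; limma adjusted p = 0.000155), with 6.29 to 6.76 in rapamycin mice against 5.14 to 5.52 in young mice. Among 6 Fc receptor genes 2 rose (1.09% of all genes did), with a list median of 0.53, and 4 rose without rapamycin 1. The 2 were Fcgr2b, the inhibitory IgG receptor (0.81 ± 0.10), and Fcer1g, the shared signalling chain of the activating receptors (0.71 ± 0.07). A second, dimmer Fcgr2b probe differed by 0.21 and did not pass (limma adjusted p = 0.37). Macrophage surface and identity genes counted 5 rises among 14 (1.09% of all genes rose), and 3 without young 1, young 2 or rapamycin 3. Cd84 (0.75 ± 0.12), Ms4a6d (0.71 ± 0.12) and Cd14, a co-receptor for bacterial lipopolysaccharide (0.69 ± 0.09), passed with every mouse left out. A second, dimmer Ms4a6d probe differed by 0.45 and did not pass (limma adjusted p = 0.181). Ly86 (0.55 ± 0.10), a partner of a Toll-like receptor relative, was lost without young 1, young 2 or rapamycin 3 (limma adjusted p = 0.0502 to 0.0529).

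The genes that mark microglia at rest had small positive differences. All 12 tested were positive (49.5% of all genes were), with a median log2 difference of 0.17, and 0 passed in limma. An unadjusted limma p under 0.05 was found for 5 of them, as for 1274 of all 10040 genes (12.7%). Without young 4, 3 passed as higher (Mertk, Tgfbr1 and Tmem119), and without rapamycin 1 Tmem119 did. Tmem119, a microglial membrane protein, read 6.59, 6.71, 6.69 and 6.92 in rapamycin mice and 6.25, 6.19, 6.38 and 6.56 in young mice, so the groups did not overlap but lay close (0.38 ± 0.10, limma adjusted p = 0.094). The mean level of the list was 7.04 to 7.11 on rapamycin arrays and 6.81 to 6.89 on young arrays. The 4 measured general markers Aif1, Cx3cr1, P2ry12 and Tmem119 averaged 6.37 to 6.54 on rapamycin arrays and 6.09 to 6.38 on young arrays, which overlapped. The part of these microglial markers in the rises of phagocyte genes was not tested.

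**Figure D3:**
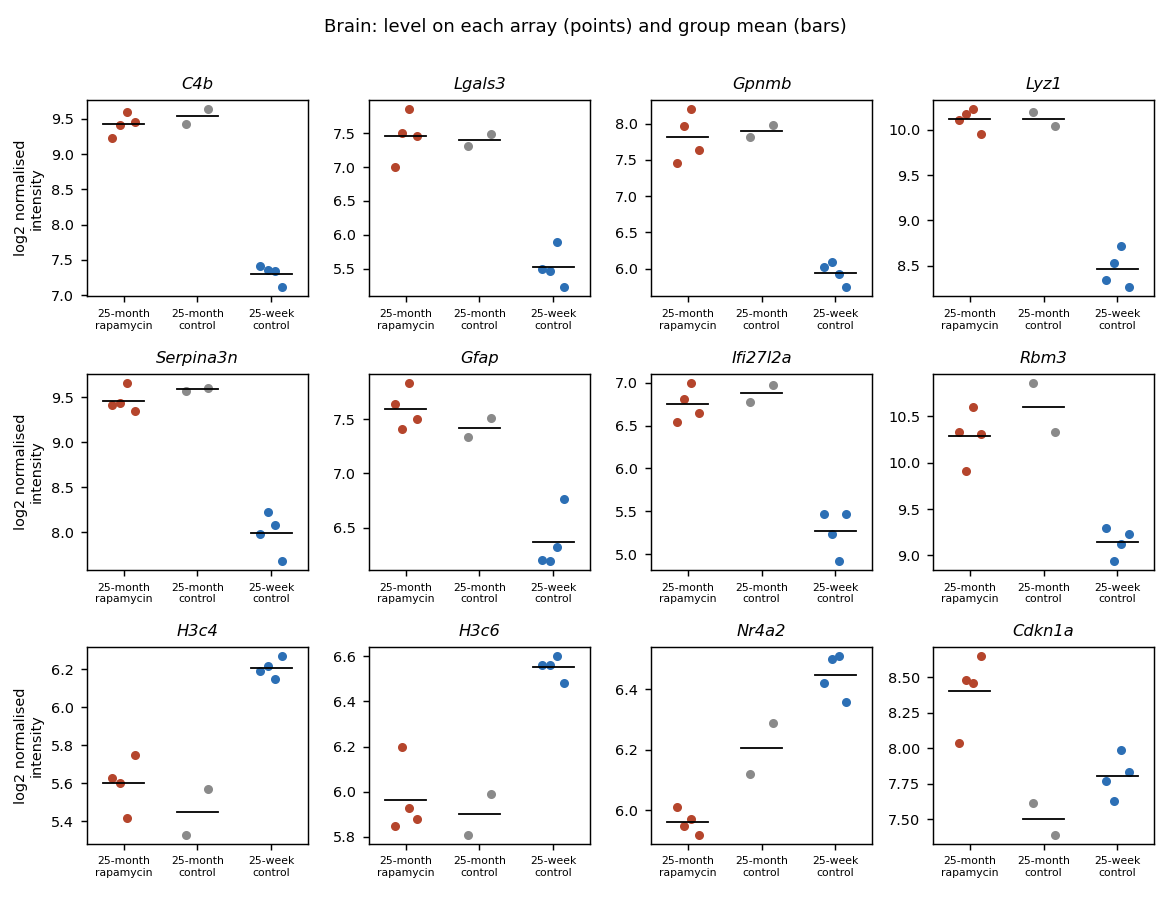
Log2 normalised intensity of 12 genes on each brain array (points) with the group mean (bars), for 4 rapamycin and 2 control mice at 25 months and 4 control mice at 25 weeks. C4b lay at 9.23 to 9.60 in rapamycin mice and 7.11 to 7.41 in young mice, H3c4 was lower in rapamycin mice, and Cdkn1a was higher in rapamycin mice than in both control groups.

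Of 23 interferon-stimulated genes tested, 9 rose and 0 fell in rapamycin mice (1.09% and 0.209% of all genes did). The median log2 difference was 0.43. Between 8 and 11 passed whichever mouse was left out. Promoters of 3 genes are shown because their letters hold the core of the interferon-stimulated response element, the site bound by interferon-activated transcription factors. B2m was taken from the naming rule, while Bst2 and Ifit3 were chosen after their values were seen. The sequences are RefSeq promoters of GRCm38.p6, given 5′ to 3′ on the gene's strand, and cover the 250 bases before the annotated start. Capitals mark matches to the motif GAAA, any 2 bases, then GAAA, on either strand, and neighbouring matches can overlap.
Bst2 (chr8:71537473-71537722, minus strand): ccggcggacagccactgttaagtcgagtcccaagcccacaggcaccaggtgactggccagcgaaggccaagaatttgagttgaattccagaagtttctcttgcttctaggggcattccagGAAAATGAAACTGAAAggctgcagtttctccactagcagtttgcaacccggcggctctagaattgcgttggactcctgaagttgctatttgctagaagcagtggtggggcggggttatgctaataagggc
Ifit3 (chr19:34583279-34583528, plus strand): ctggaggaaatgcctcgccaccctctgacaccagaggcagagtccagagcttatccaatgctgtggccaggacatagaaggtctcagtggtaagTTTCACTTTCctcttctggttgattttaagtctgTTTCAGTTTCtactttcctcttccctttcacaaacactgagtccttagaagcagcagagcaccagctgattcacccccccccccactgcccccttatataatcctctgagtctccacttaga
B2m (chr2:122147437-122147686, plus strand): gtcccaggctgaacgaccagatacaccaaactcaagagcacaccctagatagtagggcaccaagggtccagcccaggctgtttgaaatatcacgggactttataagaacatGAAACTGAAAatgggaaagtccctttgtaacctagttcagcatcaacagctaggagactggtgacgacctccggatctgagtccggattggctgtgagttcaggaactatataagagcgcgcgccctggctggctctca

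Bst2 held 2 overlapping matches on the gene's own strand, Ifit3 held 2 separate matches on the opposite strand, and B2m held 1. The motif occurred in 978 of 32851 RefSeq promoters of this length (2.98%) and in 2.59% of promoters of tested genes. Among genes higher past the test it occurred in 7 of 92 promoters (7.61%). Of the 9 interferon genes that rose, 5 matched an entry in the promoter table, and 2 of these 5 promoters held the motif. Of the 14 that did not pass, 13 matched with 16 promoters, of which 8 held it (50%). A match is a description of letters and not a bound site.

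Ifi27l2a, a small interferon-induced gene, read 6.54, 6.81, 7.0 and 6.65 in rapamycin mice, against 5.47, 5.24, 4.92 and 5.47 in young mice. Its log2 difference of 1.47 ± 0.13 (SE; limma adjusted p = 7.92e-05) was the largest of the list. Lgals3bp, a secreted glycoprotein that binds galectins, differed by 1.15 ± 0.11. Oasl2, a relative of the antiviral oligoadenylate synthetases, read 6.60, 7.0, 7.20 and 6.77, against 5.54, 5.93, 5.83 and 6.11 in young mice (1.04 ± 0.14). A second, dimmer Oasl2 probe differed by 0.34 and did not pass (limma adjusted p = 0.13). Usp18, which removes the ubiquitin-like tag ISG15 and damps interferon signalling, differed by 0.85 ± 0.14, and 2 of its 3 probes passed. Ifit3, an RNA-binding antiviral protein gene, read 8.63, 8.77, 9.26 and 8.78, against 7.96, 7.87, 7.96 and 8.26 in young mice (0.85 ± 0.13), and 2 of its 3 probes passed. Rapamycin 3 was the highest treated array for each of these 5 genes. Bst2, the tetherin gene, was detected on 4 rapamycin arrays and on 0 young arrays, at least 1.33-fold higher in rapamycin mice (limma adjusted p = 0.00598).

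Antigen presentation genes gave 3 rises. B2m, the light chain of MHC class I molecules, read 11.44, 11.37, 11.62 and 11.34 in rapamycin mice, against 10.72, 10.82, 10.82 and 10.91 in young mice. Both of its probes passed, and the log2 difference was 0.63 ± 0.09 (SE; limma adjusted p = 0.00528). Of 14 class I genes tested 2 rose (1.09% of all genes did), with a median of 0.26. This count was 4 without rapamycin 1 and 1 without young 2, young 3, rapamycin 2 or rapamycin 3. The other was H2-T23, the mouse Qa-1 gene (0.44 ± 0.08), which lost its call without each of those 4 mice (limma adjusted p = 0.0512 to 0.0721). A second, dimmer H2-T23 probe differed by 0.32 and did not pass (limma adjusted p = 0.258). Among 7 class II genes, H2-DMb1, which encodes part of the H2-DM protein that helps load class II molecules with peptide, passed alone (0.47 ± 0.10). It was lost without each of the 4 young mice in turn, and without rapamycin 2 or rapamycin 3 (limma adjusted p = 0.071 to 0.133). The class II median was 0.47.

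Chemokine and cytokine genes counted 5 rises among 12 (1.09% of all genes rose), with a median of 0.38. The count was 2 without young 2 or rapamycin 3 and 3 without rapamycin 2. Ccl4, a chemokine of activated myeloid cells, read 6.10, 6.11, 6.01 and 6.06 in rapamycin mice, while no young array detected it (4.45 to 4.69, at background). It was at least 2.23-fold higher in rapamycin mice (limma adjusted p = 7.54e-06). Cxcl16, a membrane-bound chemokine and scavenger receptor, was likewise undetected in young mice and at least 1.44-fold higher (limma adjusted p = 0.00495). Ccl12, a monocyte chemoattractant, read 5.04, 5.41, 5.50 and 5.26 in rapamycin mice and 5.73 and 5.82 in 25-month controls. It was at least 1.31-fold higher in rapamycin than in young mice, where it was undetected. The call was lost without young 1, young 2, rapamycin 2 or rapamycin 3 (limma adjusted p = 0.0502 to 0.0575). A second, dimmer Ccl12 probe differed by 0.43 and did not pass (limma adjusted p = 0.179). Il33, an alarmin made largely by oligodendrocytes and astrocytes in the brain, read 9.26, 9.03, 9.11 and 8.95 in rapamycin mice and 8.64, 8.59, 8.71 and 8.53 in young mice. Its log2 difference of 0.47 ± 0.08 (SE; limma adjusted p = 0.0173) was lost without young 2 or rapamycin 3 (0.0626 and 0.0665). Tnfsf13b, which encodes the B cell survival factor BAFF, differed by 0.54 ± 0.10 and was lost without young 2, rapamycin 2, 3 or 4 (limma adjusted p = 0.067 to 0.0812).

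Neutrophil granule genes did not pass in this comparison. Lcn2, an iron-trapping protein gene that reactive astrocytes also express and that stands in their list and in the glucocorticoid list, varied widely, with 6.40, 6.88, 7.51 and 5.68 in rapamycin mice, against 4.42, 4.71, 5.32 and 4.87 in young mice. The groups did not overlap, and the log2 difference was 1.79 ± 0.48 (SE; limma adjusted p = 0.115). Of 11 genes tested 0 passed, 4 had an unadjusted p under 0.05 (12.7% of all genes did), and Lcn2 passed without 25-month control 1 or without 25-month control 2 (limma adjusted p = 0.0192 and 0.0202). The list median was 0.28. The mean level of the list ran from 5.18 to 6.03 on rapamycin arrays and from 4.91 to 5.31 on young arrays, and was 5.95 and 7.01 on the 25-month control arrays. In those control mice against young mice 7 of the 11 were higher, against 0.886% of all genes, with a median log2 difference of 1.15. For Camp, a cathelicidin gene, the rapamycin arrays read 5.16, 4.89, 5.56 and 4.73, and the 25-month controls read 6.66 and 5.67. No young array detected it.

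Genes of reactive astrocytes gave 7 of the rises. Gfap, the astrocyte filament gene, read 7.64, 7.41, 7.84 and 7.50 in rapamycin mice, against 6.20, 6.19, 6.32 and 6.76 in young mice (log2 difference 1.23 ± 0.13; SE; limma adjusted p = 0.000317). Serpina3n, a secreted protease inhibitor of reactive astrocytes, read 9.41, 9.43, 9.66 and 9.34, against 7.98, 8.22, 8.08 and 7.68 in young mice (1.47 ± 0.11). In both genes all treated arrays lay above all young arrays, and both passed whichever mouse was left out. S100a6, a calcium-binding protein gene, differed by 0.70 ± 0.09. Aspg, an asparaginase gene of reactive astrocytes, differed by 0.64 ± 0.11, and lost its call without young 2, young 3, rapamycin 3 or rapamycin 4 (limma adjusted p = 0.0518 to 0.0685). Timp1, an inhibitor of matrix proteases, read 5.14, 5.59, 5.59 and 5.61 in rapamycin mice and 4.82, 4.78, 4.98 and 4.86 in young mice. Its call was lost without young 2 or rapamycin 3 (limma adjusted p = 0.0518 to 0.0567), and a second probe did not pass. In all 7 of 17 reactive astrocyte genes rose (1.09% of all genes did), with a median of 0.48. The count was 3 without young 2 or rapamycin 3 and 4 without young 3. Homeostatic astrocyte genes had a median of -0.02, with 0 of 15 past the test in limma. An unadjusted p under 0.05 was found for 2 of them (12.7% of all genes). Slc1a2, the main astrocytic glutamate transporter, differed by -0.28 ± 0.07 (limma adjusted p = 0.103).

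**Figure D4:**
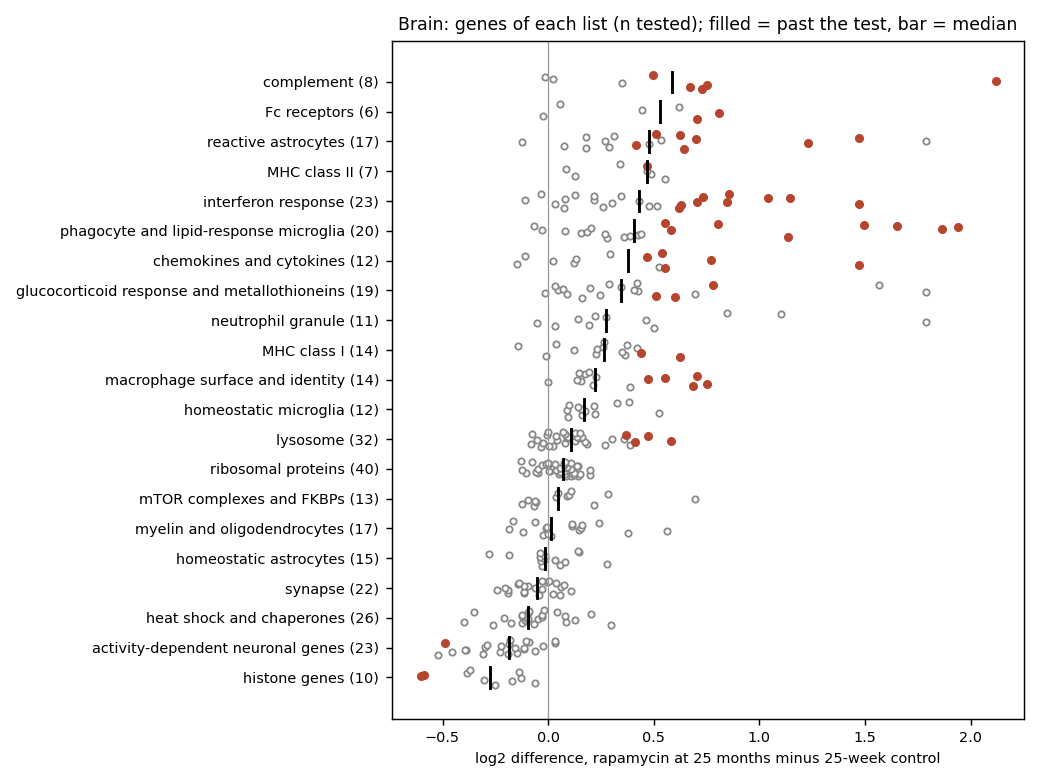
Log2 difference between rapamycin mice at 25 months and control mice at 25 weeks for the tested genes of 21 lists, with the number tested in brackets. Filled points passed the test and bars give list medians, which run from 0.58 for complement genes to -0.28 for histone genes.

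The falls were fewer and smaller. H3c4, a replication-dependent histone H3 gene, read 5.63, 5.60, 5.42 and 5.75 in rapamycin mice, against 6.19, 6.22, 6.15 and 6.27 in young mice. Its log2 difference of -0.60 ± 0.09 (SE; limma adjusted p = 0.00418) held with every mouse left out. H3c6, another histone H3 gene, read 5.85, 6.20, 5.93 and 5.88, against 6.56, 6.56, 6.60 and 6.48 in young mice (-0.59 ± 0.09). These paralogues are close in sequence, and the probes may share targets. All 10 histone genes tested had negative differences, with a median of -0.28, while 49.5% of all genes had positive ones. Of the 10, 2 passed as lower (4 without rapamycin 1), as did 0.209% of all genes. Outside that list, H4c6, a histone H4 gene, fell by 0.49 ± 0.09 on the log2 scale. It lost its call without young 2, young 3, rapamycin 3 or rapamycin 4 (limma adjusted p = 0.0506 to 0.0782). H4c9, another histone H4 gene outside that list, fell by 0.56 ± 0.12 (limma adjusted p = 0.0431). The cell cycle genes, in contrast, had a median of 0.02, with 0 of 7 past the test in limma and 0 with an unadjusted p under 0.05.

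Gpr17, a receptor of differentiating oligodendrocyte precursors, read 6.85, 7.44, 6.88 and 7.20 in rapamycin mice, against 7.79, 7.68, 7.68 and 7.54 in young mice. Its log2 difference was -0.58 ± 0.12 (SE; limma adjusted p = 0.0452). The call held only without rapamycin 2 and was lost in the other 9 fits that left out 1 mouse (limma adjusted p = 0.0527 to 0.15). It was the only one of 8 precursor genes to pass, and the list median was 0.02. Without rapamycin 1, Gpr17 did not pass, while Bcas1 and Matn4 passed as higher. Among 17 myelin and oligodendrocyte genes 0 passed in limma, 4 had an unadjusted p under 0.05 (12.7% of all genes did), and the median was 0.01. Klk6, an oligodendrocyte protease gene, differed by 0.56 ± 0.15 (limma adjusted p = 0.12).

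Genes that neurons switch on with activity mostly had negative differences, and 1 passed. Nr4a2, a nuclear receptor induced by activity and needed by dopamine neurons, read 6.01, 5.95, 5.97 and 5.92 in rapamycin mice, against 6.42, 6.50, 6.51 and 6.36 in young mice. Its log2 difference of -0.49 ± 0.07 (SE; limma adjusted p = 0.00518) held with every mouse left out. Of 23 such genes 21 had negative differences, with a median of -0.19, while 49.5% of all genes had positive ones. Nr4a2 alone passed (5 passed without rapamycin 1), and 0.209% of all genes passed as lower. Synapse genes had a median of -0.05, with 0 of 22 past the test in limma and 0 with an unadjusted p under 0.05. Dcx, a microtubule protein of immature neurons, differed by 0.11 ± 0.12 (limma adjusted p = 0.746). Of 14 neurogenesis genes 0 passed in limma, and 3 had an unadjusted p under 0.05 (12.7% of all genes did).

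Several other genes fell without a shared list. Hspa4l, a chaperone of the Hsp110 family, read 4.94, 4.74, 4.59 and 4.80 in rapamycin mice, where 1 of 4 arrays detected it, against 5.53, 5.80, 5.83 and 5.08 in young mice. The log2 difference was -0.80 ± 0.15 (SE; limma adjusted p = 0.0242), and it passed in 4 of 10 fits with 1 mouse left out. It was lost without young 1, young 2, young 3, rapamycin 2, rapamycin 3 or rapamycin 4 (limma adjusted p = 0.0613 to 0.0949). Its relative Hsph1 differed by -0.35 ± 0.09 (limma adjusted p = 0.0846), and 0 of 26 heat shock and chaperone genes passed in limma, 5 at an unadjusted p under 0.05 (12.7% of all genes were), with a median of -0.10. Ramp3, a partner of calcitonin-family receptors, read 6.72, 6.33, 6.28 and 6.43 in rapamycin mice, 6.90 and 7.10 in 25-month controls, and 6.96, 6.93, 7.05 and 6.81 in young mice. It fell by 0.50 ± 0.10 on the log2 scale against young mice, by 1 of its 3 probes (limma adjusted p = 0.0371), and was lost without the same 6 mice as Hspa4l (0.0971 to 0.135). Nts, the neuropeptide neurotensin, fell by 0.49 ± 0.10 and was also lost without those mice (limma adjusted p = 0.066 to 0.141). Grk5, a kinase that desensitizes receptors, read 5.34, 5.53, 5.29 and 5.41, against 5.79, 5.78, 5.82 and 6.07 in young mice (-0.47 ± 0.09). It was lost without young 3, rapamycin 3 or rapamycin 4 (limma adjusted p = 0.0529 to 0.0887).

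Both main cold-inducible RNA-binding protein genes rose. Rbm3 read 10.33, 9.91, 10.60 and 10.31 in rapamycin mice, against 9.30, 8.94, 9.12 and 9.23 in young mice, a log2 difference of 1.14 ± 0.15 (SE; limma adjusted p = 0.00173). This rests on the brightest of its 3 probes, and the dimmer 2 differed by -0.38 and 0.11 without passing. Cirbp read 8.66, 8.08, 8.77 and 8.36, against 7.58, 7.52, 7.72 and 7.89 in young mice (0.79 ± 0.14, limma adjusted p = 0.0178), and lost its call without young 1, young 2, young 3 or rapamycin 3 (0.0512 to 0.0699). The 25-month controls read 10.86 and 10.33 for Rbm3, and 8.77 and 8.43 for Cirbp, within or just above the rapamycin values. The sources used here give neither body temperature nor the hour of collection.

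Of 19 genes in the list of glucocorticoid response and metallothioneins, 18 had positive differences (49.5% of all genes did). Their median log2 difference was 0.34, and 3 passed as higher (1.09% of all genes did). That count was 7 without rapamycin 1, 5 without either 25-month control, 1 without young 1 or young 2, and 0 without rapamycin 2, 3 or 4. Sgk1, a corticosteroid-induced gene whose kinase is activated through mTOR complex 2, read 12.20, 12.13, 12.18 and 12.02 in rapamycin mice, against 11.55, 10.79, 11.45 and 11.63 in young mice. Its log2 difference was 0.78 ± 0.15 (SE; limma adjusted p = 0.026), and it was lost without young 3, rapamycin 2, 3 or 4 (0.0569 to 0.0911). Ddit4, which encodes REDD1, a stress-induced inhibitor of mTOR complex 1, read 9.25, 9.03, 9.10 and 8.97, against 8.62, 8.30, 8.72 and 8.67 in young mice (0.51 ± 0.10). It was lost without young 1, young 2, rapamycin 2, 3 or 4 (limma adjusted p = 0.0517 to 0.0977). Fkbp5, an inhibitor of glucocorticoid receptor activity that also binds rapamycin, read 6.71, 7.72, 7.73 and 7.39, against 6.65, 6.59, 6.82 and 6.72 in young mice. Rapamycin 1 lay among the young values, and the difference of 0.69 ± 0.19 did not pass (limma adjusted p = 0.12). The mean level of the list was 8.45 to 8.68 on rapamycin arrays, 8.20 and 8.57 on 25-month control arrays, and 7.99 to 8.25 on young arrays.

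Cdkn1a, which encodes the cell cycle inhibitor p21, read 8.04, 8.48, 8.46 and 8.65 in rapamycin mice, 7.61 and 7.39 in 25-month controls, and 7.77, 7.63, 7.99 and 7.83 in young mice. The rapamycin arrays were above all others, while the 25-month controls lay below all young values. Against young mice the log2 difference was 0.60 ± 0.12 (SE; limma adjusted p = 0.0369), and 1 of 3 probes passed. It was lost without young 1, 2 or 4 and without rapamycin 2, 3 or 4 (limma adjusted p = 0.0668 to 0.124). Cdkn2a, the p16 gene and a marker of senescence, differed by 0.05 ± 0.08 (limma adjusted p = 0.853). It lay near background, with means of 4.97 in rapamycin and 4.92 in young mice, and 3 of 4 arrays of each group detected it. A difference in its level could therefore be missed. Depp1, a target of FOXO factors, read 6.63, 6.72, 6.44 and 7.06 in rapamycin mice, 6.87 and 5.87 in 25-month controls, and 5.62, 5.32, 5.62 and 5.48 in young mice. It rose by 1.20 ± 0.18 on the log2 scale against young mice (limma adjusted p = 0.00591) and held with every mouse left out.

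Lipid, lysosome and transport genes gave a few further rises. Ch25h, the enzyme that makes the antiviral oxysterol 25-hydroxycholesterol, read 5.67, 5.43, 5.44 and 5.41 in rapamycin mice and 6.90 and 5.75 in 25-month controls, and was undetected on all young arrays. It was at least 1.49-fold higher in rapamycin than in young mice (limma adjusted p = 0.0158). The call was lost without young 1, young 2 or rapamycin 3 (0.0502 to 0.0529). Apod, a lipid-carrying apolipoprotein of glia, differed by log2 0.54 ± 0.10 (SE; limma adjusted p = 0.0168), and was lost without rapamycin 3 (0.0529). Sterol and lipid handling genes counted 2 rises among 20 (1.09% of all genes rose), 1 without young 1 or young 2, and 0 without rapamycin 3. Ctsz, the lysosomal protease cathepsin Z, read 6.76, 6.98, 6.92 and 6.98 in rapamycin mice, 6.35 and 6.47 in 25-month controls, and 6.32, 6.50, 6.30 and 6.20 in young mice. Both Ctsz probes passed against young mice (0.58 ± 0.09 for the brighter, limma adjusted p = 0.00501). Among 32 lysosome genes 4 rose (1.09% of all genes did), with a median of 0.11. The count was 2 without young 1, young 2 or rapamycin 4 and 1 without rapamycin 3. Slc2a1, the glucose transporter of the blood-brain barrier, differed by 0.61 ± 0.12 (limma adjusted p = 0.0259), and was lost without young 2, 3 or 4 and without rapamycin 2, 3 or 4 (0.0599 to 0.0949).

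Th, the tyrosine hydroxylase gene of dopamine neurons, read 6.76, 6.62, 6.86 and 6.53 in rapamycin mice, against 6.26, 5.71, 6.29 and 5.97 in young mice. Its log2 difference was 0.64 ± 0.13 (SE; limma adjusted p = 0.0313), lost without young 2, young 4, rapamycin 2 or rapamycin 3 (0.067 to 0.122). The olfactory bulb markers Cdhr1 and Doc2g had positive differences that did not pass (limma adjusted p = 0.289 and 0.19). Cdhr1 ranged from 8.48 to 9.10 on rapamycin arrays and from 6.45 to 8.26 on young arrays, and Doc2g from 6.28 to 6.91 on rapamycin arrays and from 4.66 to 6.25 on young arrays. The bulb marker Eomes was detected on no array. The part of bulb tissue in the Th difference was not tested.

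The genes of the drug's own target did not pass with all mice included. Mtor, the kinase itself, read 8.75, 8.77, 8.89 and 8.83 in rapamycin mice and 8.61, 8.73, 8.66 and 8.85 in young mice (log2 difference 0.10 ± 0.08; SE; limma adjusted p = 0.63), and the groups overlapped. Fkbp1a, the FKBP12 gene, read 10.99, 10.75, 10.82 and 10.67 in rapamycin mice, against 11.04, 10.85, 10.97 and 10.87 in young mice (-0.12 ± 0.08, limma adjusted p = 0.578). Of 13 genes of the mTOR complexes and FKBP family 0 passed in limma, 3 had an unadjusted p under 0.05 (12.7% of all genes did), and the median was 0.05. Without rapamycin 1, Fkbp5 and Prr5 passed as higher (limma adjusted p = 0.00266 and 0.0356). Among 27 inputs and outputs of mTOR signalling, Sgk1 and Ddit4 passed, with a median of 0.03, and without rapamycin 2, 3 or 4 neither did. Ribosomal protein genes had a median of 0.07 (0 of 40 past the test in limma, 1 at an unadjusted p under 0.05), autophagy genes -0.02 (0 of 22, and 2) and cholesterol synthesis genes -0.01 (0 of 18, and 2). Choroid plexus genes had a median of -0.16 with 12 of 13 negative, while 49.5% of all genes were positive. In limma 0 of them passed, with 3 at an unadjusted p under 0.05. Kl, the klotho gene, differed there by -0.45 ± 0.13 (limma adjusted p = 0.13). All these values are transcript levels, and mTOR kinase activity was not measured here.

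The second question was how the rapamycin mice compared with control mice of their own age, of which there were 2. In limma 4 of 14473 probes passed (0.0276%), 1 higher (0.00691%) and 3 lower (0.0207%) in rapamycin mice, and 1422 had an unadjusted p under 0.05. At 1 probe per gene 3 of 10040 genes passed (0.0299%), all lower in rapamycin mice. These were Slc34a1, a kidney phosphate transporter, Prg2, an eosinophil granule protein, and Spink1, a trypsin inhibitor. Slc34a1 read 4.58, 4.52, 4.48 and 4.37 in rapamycin mice, against 5.64 and 5.54 in 25-month controls (limma adjusted p = 0.000441), and 4.45 to 4.63 in young mice. All 3 genes were detected in the 25-month controls and on no rapamycin or young array. They met the detection filter only through the 2 control arrays, where they were high, so their calls are not independent of that filter. Kap, another kidney gene, read 5.50 on 1 of the 2 control arrays and was undetected on the remaining 9 arrays. The kidney marker Umod was detected on no array. The part of kidney RNA in the 25-month control arrays was not tested. The other probe to pass was a dimmer Cdkn1a probe, higher in rapamycin mice (limma adjusted p = 0.0301), and the main Cdkn1a probe differed by log2 0.90 without passing (0.0962). Leaving out mice moved the count of 4 probes to 21 without rapamycin 1, to 0 without 25-month control 1, to 2 without 25-month control 2, young 2, young 4, rapamycin 2, rapamycin 3 or rapamycin 4, and to 3 without young 1 or young 3.

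Of the 130 genes that differed between rapamycin and young mice, 0 passed in limma between rapamycin and 25-month control mice, and 26 had an unadjusted p under 0.05, as did 948 of all 10040 genes. With 2 control mice, a difference that did not pass is not shown to be absent. The values for the leading genes can be read side by side. C4b averaged 9.42 in rapamycin mice, against 9.43 and 9.64 in the 25-month controls, and Gpnmb read 7.82 and 7.98 in those controls. The difference of rapamycin minus 25-month controls was -0.11 for C4b, 0.05 for Lgals3, -0.13 for Serpina3n, 0.17 for Gfap and -0.13 for Ifi27l2a, all without passing (limma adjusted p from 0.745 to 0.954). In 6 of the 130 genes the difference was over 0.5 in size, and none passed. Cdkn1a (0.90), Numa1 (0.55), Nrros (0.53) and Ctsz (0.50) were higher in rapamycin mice than in the 25-month controls (limma adjusted p = 0.0962, 0.16, 0.297 and 0.217). Ch25h (-0.84) and Ramp3 (-0.56) were lower (limma adjusted p = 0.308 and 0.245), as was Ccl12 by a smaller difference (-0.47, limma adjusted p = 0.297). For Ch25h and Ccl12 the 2 control arrays lay above all 4 rapamycin arrays, which lay above all young arrays. Numa1, Nrros and Ccl12 are given here for values already seen.

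**Figure D5:**
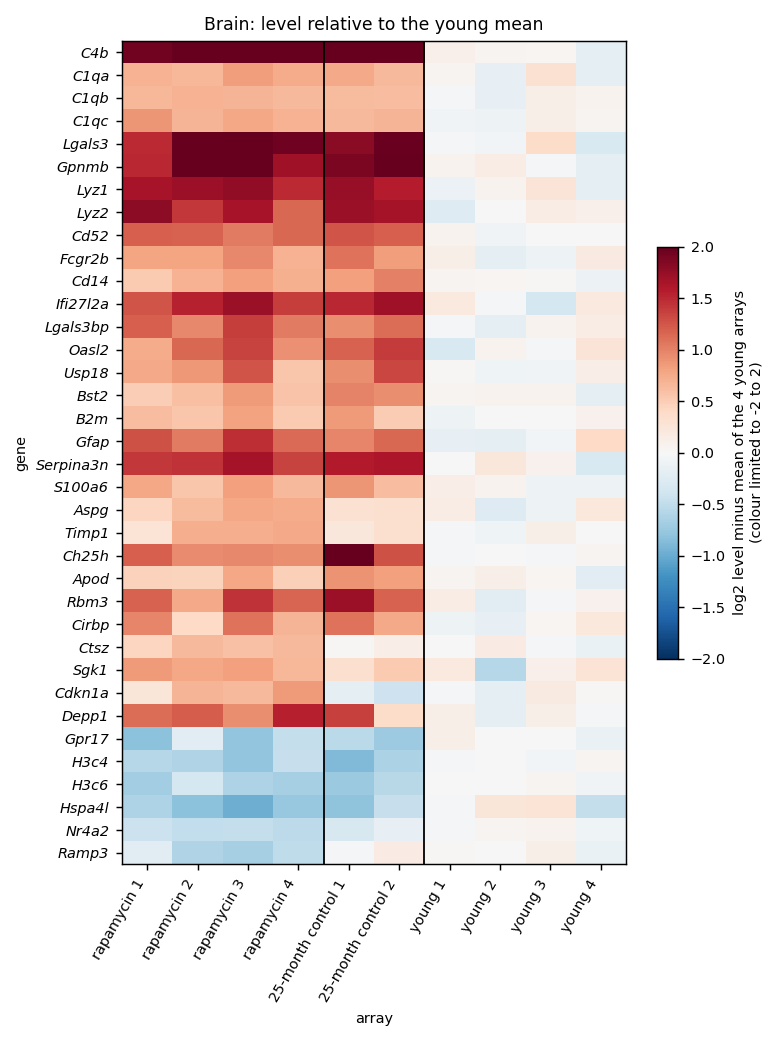
Log2 level of 36 genes on each brain array relative to the mean of the 4 young arrays, with genes in rows and arrays in columns, rapamycin left of the 25-month controls and young arrays at the right. C4b, Lgals3 and Gpnmb are high on all 6 arrays of 25-month mice, Cdkn1a and Ctsz are higher on rapamycin arrays than on the 2 control arrays of that age, and colours stop at -2 and 2.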

How the data were processed

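Brain RNA of 10 mice was measured on Illumina arrays, 1 per mouse. Per the submitters' processing notes GenomeStudio 2011.1 was used. The deposited non-normalized file held linear signal intensity, and a detection p-value per probe and array was deposited beside it. The second matrix the authors deposited held background-subtracted intensity, whose normalization is not given in the sources used here, and served as an alternative.

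Groups followed source names and ages. Of 25697 probes, 23978 carried 1 gene symbol and 1719 none. Intensities were corrected with normexp (offset 16), quantile-normalised and logged to log2 (neqc, limma 3.58.1, R 4.3.3, data.table version 1.17.8). Probes with detection p under 0.05 on at least 2 of 10 arrays were tested, with 1 mean per group, empirical Bayes moderation and Benjamini-Hochberg adjustment. The 10 brain arrays were normalised and fitted together, so all groups shared 1 estimate of the spread. The brightest probe stood for a gene. Errors after ± are limma standard errors. Where no array of a group detected a gene, the bound used the higher of its signal and the lowest signal above background. Mouse numbers in the labels differ, so replicates are separate mice, and the number of arrays limits precision.

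Members, the 49 gene lists and the naming rule were chosen with earlier results of these data known. Some genes, such as Lcn2 and Fkbp5, stand in more than 1 list and count in each. The rule took the 15 genes with the largest passing difference in each direction, up to 4 passing members per list (or 2 with the smallest p), the genes past the test between rapamycin and 25-month controls, and the drug target and label check genes. Il33, Cdkn2a and Dcx are such label check genes, and 5 of the 7 passed between rapamycin and young mice. That count does not compare the 25-month controls, whose titles and ages conflicted. The mean log2 level of the 7 genes was 8.25 and 8.21 on the 25-month control arrays, against 7.34 to 7.44 on young arrays. Text names part of this pool, and no rule set that part. Alternatives covered background correction, scaling, arrays normalised together, the second matrix, offset, detection filters, moderation, array weights, compared arrays alone, the replicate block and each mouse left out. No slide identifiers were given, so no slide block was run. The fit was tested on simulated data with known changes.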

Additional observations from a re-analysis of the deposited data

Results flagged for a closer look

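Among 70 genes with values by array, 140 groups of 4 were examined for a single array far from the other 3, and 9 were found, while chance alone gives about 1 in 20. In rapamycin mice, rapamycin 1 was lowest for Tnfsf13b (6.12, the others 6.46 to 6.48) and Timp1 (5.14, the others 5.59 to 5.61), and highest for Ch25h (5.67, the others 5.41 to 5.44). Rapamycin 3 was highest for Apod (12.35, the others 12.02 to 12.06). Among young mice, young 4 was lowest for Bst2 (4.51, the others 4.76 to 4.78) and H2-DMb1 (4.87, the others 5.12 to 5.16), and highest for Grk5 (6.07, the others 5.78 to 5.82) and Ch25h (4.54, the others 4.45 to 4.47). Young 3 was highest for Slc1a2 (9.37, the others 9.29 to 9.30). For Bst2 and Ch25h the young values were not above background. Rapamycin 1 and young 4, which also stood apart on the principal components, account for 7 of these 9, and no cause was tested.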

How the results depend on the processing

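For rapamycin minus young, the 158 probes became 405 with array weights (281 higher, 124 lower) and 382 with rapamycin 1 and young 4 left out, an alternative chosen after the data were seen (226 higher, 156 lower). Probes lower were 44 without background correction, 44 with a variance trend and robust moderation, and 12 with the replicate block. Leaving out each mouse gave 62 to 440 probes, 59 to 251 higher and 3 to 189 lower. List genes past the test numbered 59 (55 higher and 4 lower), 95 with array weights (84 and 11), and 35 to 84 with each mouse left out (32 to 74, and 3 to 10). The lower ones were 9 without background correction, 8 with an offset of 50, 7 with the variance trend and 11 without rapamycin 1 and young 4. All 158 calls that were tested kept their direction under every alternative.

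For rapamycin minus 25-month controls, the 4 probes (1 higher, 3 lower) became 0 without background correction (0 and 0), 20 with median scaling (10 and 10), 0 with the stricter detection filter (0 and 0), 2 with no filter (0 higher) and 30 without rapamycin 1 and young 4 (9 and 21). Higher probes were 2 with 30 arrays normalised together, an offset of 50, the variance trend or array weights. With each mouse left out the count ran from 0 to 21, with 0 to 4 higher and 0 to 17 lower. Against young mice the undetected Slc34a1 (main difference -0.03) ran from -0.0634 to 0.0079 with a mouse left out, and Cdkn2a to -0.0082 without rapamycin 1 and young 4. The causes were not tested.

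The deviations of rapamycin and young arrays of the same number had correlations of -0.0085, 0.15, 0.051 and -0.17. For arrays of different numbers the correlations ran from -0.18 to 0.27. So few values gave no sign of pairing by number but cannot decide it. With the replicate block 114 probes passed (102 higher) against young mice and 2 against 25-month controls (0 higher). Calls were followed gene by gene for 55 named genes that passed, without H4c9, Numa1 and Nrros. Of these 55, 8 lost the call with the block (Cdkn1a, Ddit4, Gpr17, Nts, Ramp3, Sgk1, Slc2a1 and Tnfsf13b). Median scaling lost 1 (H2-T23), the second matrix 1 (Nts), and the compared arrays alone 1 (Gpr17). Without background correction 9 were lost (among them Bst2, Ch25h, Timp1 and Hspa4l), and 12 with no filter. An offset of 50 lost 2 (H2-DMb1 and Nts), and the variance trend 1 (Sgk1). Other lists with 0 calls gained 1 with a mouse left out: Cnp without rapamycin 1 and Klk6 without 25-month control 1 or 2 (myelin), Kl without rapamycin 1 or young 4 (choroid plexus), Ccnd2 (neurogenesis), Foxo1 (insulin signalling) and Notch3 (pericytes) without young 4, and Polr1a (ribosome biogenesis) without rapamycin 1. Small differences, 10 arrays and dim probes near background limit what could be found.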

Other observations

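Lists not described above held few or no calls between rapamycin and young brains. Over all genes, 12.7% had an unadjusted limma p under 0.05, the share to set beside each count below. Oxidative phosphorylation genes had a median log2 difference of -0.04, with 0 of 42 past the test in limma and 2 at an unadjusted p under 0.05. Proteasome genes had a median of 0.01 (0 of 27, and 1), antioxidant targets of NRF2 0.05 (0 of 22, and 2) and insulin and IGF signalling genes 0.05 (0 of 18, and 2). Clock genes and their outputs had a median of 0.04 (0 of 18, and 3). Endothelial genes had a median of 0.14 over 17 genes, where Slc2a1 was the single rise. Genes of collagens and matrix had a median of 0.09 over 25, with Timp1 alone past the test, and red blood cell genes -0.02 over 5. Inhibitory neuron genes (0.01 over 15), excitatory neuron genes (-0.07 over 13) and ion channel genes (-0.12 over 16) had 0 past the test in limma, with 1, 0 and 3 at an unadjusted p under 0.05.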
